A study of Mus musculus with 2 samples.

Results

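Microfibrils and elastic fibres were examined through 10 genes in *Sox9*GFPHi chondrospheres. They are the fibrillins *Fbn1* and *Fbn2*, the elastin gene *Eln*, the fibulins *Fbln1*, *Fbln2*, *Fbln5*, *Fbln7*, *Efemp1* and *Efemp2*, and *Mfap5*, a microfibril-associated glycoprotein. The genes were taken by symbol from the deposited expression values, and all 10 were found among the 23628 genes listed. The samples were 2 RNA-sequencing libraries of a single condition, called replicate 1 and replicate 2, from mouse chondrocytes of postnatal day 7 pups homozygous for a *Sox9* IRES-EGFP reporter. The cells came from digested femoral heads and were sorted for high GFP and for absence of the endothelial, erythroid and leukocyte markers CD31, Ter119 and CD45. They then grew as colonies in methylcellulose under low oxygen, in medium with serum, FGF2, BMP4, IGF1, LIF and TGF-β1. GFP reports *Sox9* transcription, so cells were gated on that gene, whose level was 252 CPM in replicate 1 against 279 CPM in replicate 2. The methods describe each pup as harvested separately, but the labels do not tie the libraries to pups, so the spread between them may be technical. A single condition allows no comparison of groups by a test.

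Fibrillins polymerise into microfibrils, thin filaments that surround cells, bind latent TGF-beta complexes and serve as the scaffold on which elastin is laid down. Fibulins are calcium-binding glycoproteins that link elastin, microfibrils and other matrix proteins, and lysyl oxidases then crosslink the deposited elastin. Cartilage of limb joints is rich in microfibrils around its chondrocytes, while abundant elastic fibres are known from elastic cartilage, arteries, lung and skin. Mutations of human *FBN1* cause Marfan syndrome, in which the long bones overgrow.

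Expression is given as CPM, that is, reads of a gene scaled to the same total over all genes in each library. The spacing of the lowest values corresponds to about 43300000 reads for replicate 1 and 42200000 for replicate 2. The level of 3 reads, the smallest counted here as detected, was 0.0693 and 0.0712 CPM, which covers counting error only. The 10 genes with the highest mean took 43.0% of replicate 1 and 34.7% of replicate 2, so all other CPM values depend on them. All 8 chondrocyte markers had a mean of at least 1 CPM, as did 53.5% of all listed genes. The list summed to 187245 CPM in replicate 1 against 129663 CPM in replicate 2. Smooth muscle and fibroblasts are known to make elastic fibres. Of the smooth muscle markers, *Myh11* and *Cnn1* were at 0.139 and 0.116 CPM in replicate 1 and at 0 in replicate 2. The whole list of 8 summed to 857 and 905 CPM through *Cspg4*, *Smtn* and *Acta2*. The 6 endothelial markers summed to 0.370 and 0.261 CPM, with 4 of them at 0 in both libraries. The fibroblast list of 8 summed to 2725 and 1328 CPM, mostly through *Col1a1*, *Dcn* and *Col3a1*. *Col1a1* had 1166 and 584 CPM, *Dcn* 879 and 267 CPM and *Col3a1* 616 and 471 CPM. In the same list *Pi16* was at 0 in both libraries and *Thy1* at 0.208 and 0 CPM. In bulk RNA, fewer cells of a type and less RNA per cell cannot be told apart.

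The 10 genes together reached 1167 CPM in replicate 1 against 1305 CPM in replicate 2, or 0.117% and 0.130% of all reads on genes. In CPM most came from *Fbln2*, *Efemp2* and *Fbn1*, with *Eln* in between, and *Fbn2*, *Fbln1* and *Mfap5* were the lowest. Of the 10 genes, 8 had a mean of at least 1 CPM, against 53.5% of all listed genes. At least 10 CPM was reached by 6, and no share of all genes was computed at that level. The median of the 10 genes' means was 74.96 CPM, beside 1.63 CPM over all listed genes and 16.2 CPM over those averaging 1 CPM or more.

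**Figure D1:**
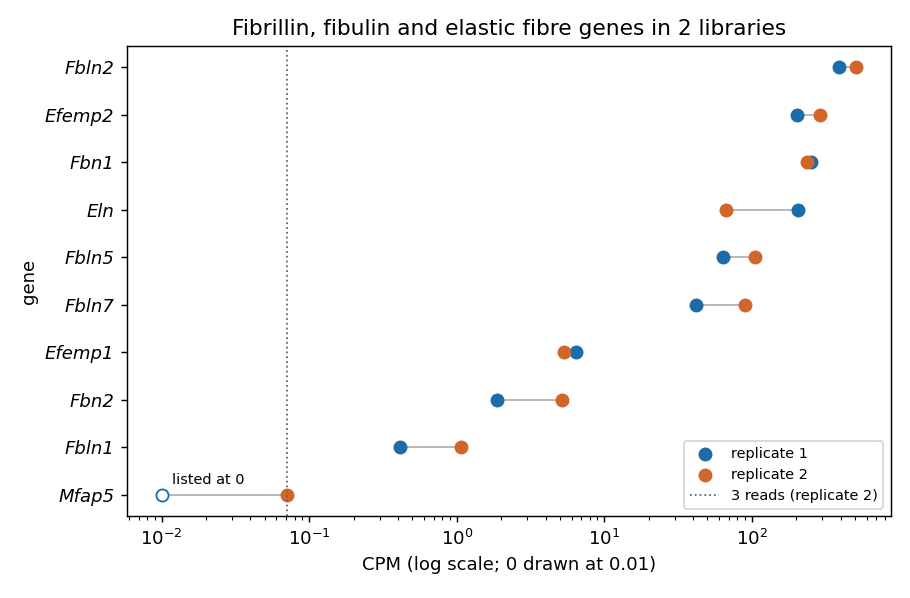
Level of each gene in CPM (log axis) in replicate 1 (blue) and replicate 2 (orange), joined by a line; the dotted line marks 3 reads in replicate 2 and the open circle a value of 0. *Fbln2* was the highest at 392 and 507 CPM, and *Eln* had the widest gap among the 6 genes of at least 10 CPM, at 205 and 66.7 CPM.

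*Fbn1* encodes fibrillin-1, the main fibrillin of postnatal tissue. It lies on the minus strand of chromosome 2 of GRCm38 from 125300594 to 125507993, and its longest coding transcript has 65 exons and 11971 bases. It was measured at 253 CPM in replicate 1 against 236 CPM in replicate 2, averaging 244 ± 11.9 CPM (SD, n = 2). In CPM without centring the libraries lay close together, with an SD of 4.89% of the mean, the smallest of the 10 genes. After the centring between libraries described further below, *Fbn1* differed by a log2 ratio of -0.40. *Fbln2* and *Efemp2* differed by less on that scale, at 0.07 and 0.21. *Fbn2* encodes fibrillin-2, which is known mainly from embryonic microfibrils, and lies on chromosome 18 from 58008623 to 58210487. It had 1.87 CPM in replicate 1 against 5.20 CPM in replicate 2, which correspond to 81 and 219 reads. *Fbn2* was therefore detected in both libraries but was low.

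Levels of different genes were compared as CPM per kb, that is, CPM divided by the length of the longest coding transcript. On that scale *Fbn1* exceeded *Fbn2* 124-fold in replicate 1 and 41.8-fold in replicate 2. The log2 ratio of *Fbn2* to *Fbn1* was -6.17 ± 1.11 (SD, n = 2), so the difference between the fibrillins was larger than the spread between libraries. No stretch of 50 bases, the read length, in the longest transcript of any of the 10 genes occurred in an annotated transcript of another gene. Reads of *Fbn1* and *Fbn2* within these transcripts can thus be told apart.

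*Eln* encodes tropoelastin, the monomer that is crosslinked into the elastic core. It lies on the minus strand of chromosome 5 from 134702593 to 134747323, with a transcript of 37 exons and 3853 bases. It had 205 CPM in replicate 1 against 66.7 CPM in replicate 2, with a mean of 136 ± 98.1 CPM (SD, n = 2). The elastin transcript was clearly present in both libraries, but its level was not settled by them. Among the 15575 genes with a coding transcript length, *Eln* ranked 597 per kb in replicate 1 and 2507 in replicate 2. Relative to the 2 fibrillins summed per kb, *Eln* was 2.51 times as high in replicate 1 and 0.858 times in replicate 2. The mean log2 ratio of 0.55 was smaller than its SD of 1.09, so no order of elastin and fibrillins was established, and dividing by the exon union or by no length at all turned its sign.

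The fibulins fell into high, middle and low genes. *Fbln2* encodes fibulin-2, which binds fibrillin, fibronectin and proteoglycans such as aggrecan and versican, and lies on chromosome 6 from 91212455 to 91272540. It had 392 CPM in replicate 1 against 507 CPM in replicate 2. *Efemp2* encodes fibulin-4, which brings lysyl oxidase to tropoelastin and is required for elastic fibre formation, and lies on chromosome 19 from 5473954 to 5482517. It had 202 CPM in replicate 1 against 290 CPM in replicate 2. Per kb *Fbln2* and *Efemp2* could not be ordered, at 93.9 ± 17.0 and 93.4 ± 23.5 CPM per kb (SD, n = 2 each). They ranked 372 and 375 of the 15575 genes, and together they made up the larger part of the 10 genes' level per kb in both libraries.

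*Fbln5* encodes fibulin-5, which binds elastin and integrins and is likewise needed to assemble elastic fibres, and lies on the minus strand of chromosome 12 from 101746565 to 101819055. It had 63.7 CPM in replicate 1 against 105 CPM in replicate 2. *Fbln7* encodes fibulin-7, a cell adhesion protein first described in teeth, and lies on chromosome 2 from 128862981 to 128897034. It had 42.2 CPM in replicate 1 against 89.3 CPM in replicate 2. Both genes were higher in replicate 2. Per kb their library ranges overlapped, although *Fbln7* was above *Fbln5* in both. *Efemp2* exceeded *Fbln5* per kb by a log2 ratio of 2.71 ± 0.14 (SD, n = 2), or 7.03-fold and 6.13-fold. The ratio of these elastin-assembly fibulins was thus among the steadier ones measured here.

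*Efemp1*, on chromosome 11 from 28853204 to 28926743, encodes fibulin-3 of basement membranes and connective tissue. It had 6.45 CPM in replicate 1 against 5.31 CPM in replicate 2. *Fbln1*, on chromosome 15 from 85205949 to 85286535, encodes fibulin-1, a cofactor of the protease ADAMTS1, and had 0.416 and 1.07 CPM, or 18 and 45 reads. *Fbln2* exceeded *Fbln1* per kb 720-fold and 363-fold. The paralogs fibulin-1 and fibulin-2 thus differed far beyond the spread between libraries. *Mfap5*, on chromosome 6 from 122505845 to 122529290, whose protein MAGP-2 binds fibrillins, was at 0 in replicate 1, while replicate 2 had 0.0712 CPM, or 3 reads. In replicate 1 the value of 0 allows up to 0.0693 CPM. *Mfap5* was therefore at or under the limit of detection, and no fold is reported for it.

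To show the upstream sequence of a fibulin gene that was low and of one that was not, the 250 bases before the RefSeq start (GRCm38.p6) are given for *Fbln1* and *Fbln7*. Of the 10 genes, 7 had such windows, 11 in all. These 2 windows alone held no annotated exon and were followed by bases found in a GENCODE transcript of the gene. The match could lie anywhere in that transcript and was not required to be its start. That of *Fbln1* is chr15:85205699-85205948 and that of *Fbln7* is chr2:128863682-128863931, both on the plus strand. The *Fbln7* window lies in the first intron of a longer transcript of the gene. Capitals mark every CG dinucleotide.
Fbln1: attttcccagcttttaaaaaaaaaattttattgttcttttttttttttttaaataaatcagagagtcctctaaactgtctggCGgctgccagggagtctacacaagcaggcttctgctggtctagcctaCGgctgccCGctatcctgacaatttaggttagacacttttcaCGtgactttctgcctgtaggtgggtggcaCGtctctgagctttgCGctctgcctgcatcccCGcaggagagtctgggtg
Fbln7: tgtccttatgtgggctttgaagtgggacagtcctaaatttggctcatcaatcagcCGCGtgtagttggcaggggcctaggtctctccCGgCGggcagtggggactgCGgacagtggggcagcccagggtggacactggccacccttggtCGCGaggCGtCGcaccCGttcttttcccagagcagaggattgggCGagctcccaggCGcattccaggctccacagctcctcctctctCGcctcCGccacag
The printed *Fbln1* window had a GC content of 46.4% with 7 CG, and the *Fbln7* window 63.2% with 14 CG. The median over 32851 such windows of all genes was 52.4% with 6 CG. Neither printed window held TATAAA or GGGCGG on either strand, which 12.4% and 32.7% of all windows did, and the letters describe these windows only. Another *Fbln1* window, chr15:85205758-85206007, overlaps an exon of the gene and was not printed. It had a GC content of 62.4% with 14 CG and 1 GGGCGG. The difference between the printed windows thus depends on which *Fbln1* window is taken.

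Per kb, the order of the means was *Fbln2*, *Efemp2*, *Eln*, *Fbn1*, *Fbln7*, *Fbln5*, *Efemp1*, *Fbn2*, *Fbln1* and *Mfap5*. The library ranges of *Eln*, *Fbn1*, *Fbln7* and *Fbln5* each overlapped with that of the next, so these neighbours were not separated by range. Within each library *Fbln7* was above *Fbln5*, by a log2 ratio of 0.26 in replicate 1 and 0.62 in replicate 2. *Fbn1* lay above *Fbln5* in both libraries without overlap. *Efemp2* lay above *Eln* by a log2 ratio of 0.53 in replicate 1 and 2.67 in replicate 2. *Efemp1* lay below *Fbln5* in both libraries, by a log2 ratio of 2.29 ± 0.70 (SD, n = 2), and *Fbn2* lay below *Efemp1* by 3.35 ± 1.24 (SD, n = 2). *Fbn2* was above *Fbln1* in both libraries, but their ranges overlapped. The fibulins held 71.4% of the summed CPM per kb in replicate 1 and 87.6% in replicate 2, a mean of 79.5% ± 11.5 (SD, n = 2). The fibrillins held 8.16% and 6.68%. The share of *Eln* was 20.5% in replicate 1 and 5.73% in replicate 2.

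**Figure D2:**
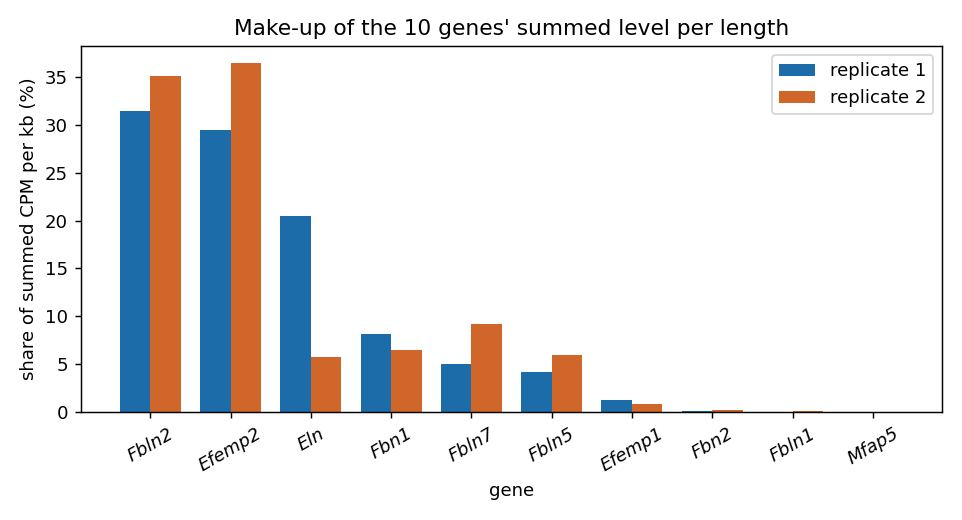
Share of each gene (in %, bars from 0) in the summed CPM per kb of the 10 genes, in replicate 1 (blue) and replicate 2 (orange). *Fbln2* and *Efemp2* had the tallest bars in both libraries, while *Eln* had 20.5% in replicate 1 and 5.73% in replicate 2.

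Against the matrix genes *Col2a1*, *Fn1*, *Acan* and *Col1a1*, *Fbn1* was low per kb. *Col2a1*, the gene of collagen II, exceeded *Fbn1* per kb by a log2 ratio of 10.20 ± 0.33 (SD, n = 2), and *Fn1*, the fibronectin gene, did so by 9.99 ± 0.06 (SD, n = 2). *Acan*, the gene of the proteoglycan aggrecan, was at 1779 ± 208 CPM per kb (SD, n = 2), beside 20.4 ± 0.998 for *Fbn1*. *Col1a1*, the gene of collagen I, exceeded *Fbn1* by 2.77 ± 0.64 and *Eln* by 2.20 ± 0.44 (SD, n = 2 each). Each of these differences was larger than the spread between libraries. Not all of the 10 genes lay below *Col1a1* throughout. In replicate 1 *Fbln2* and *Efemp2* had 81.9 and 76.8 CPM per kb, beside 197 for *Col1a1*. In replicate 2 they exceeded it, at 106 and 110 beside 98.4.

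The libraries were then set against each other on log2(CPM + 0.1), centred on the median of the 12631 genes averaging 1 CPM or more. This median was 0.30 higher in replicate 2 before centring. A fold on this scale understates the change of low genes. With 1 library on each side these values describe the libraries and not a condition. Of the 8 members of that set, *Eln* was lower and *Fbn2* higher in replicate 2 by over 2-fold. Over all genes 13.5% passed that fold, 7.43% as higher and 6.06% as lower in replicate 2, and the 1 gene of 8 in each direction is to be read against these shares. *Eln* differed by a log2 ratio of -1.93, against a counting error of 0.03 and an SD of 0.83 over the 12631 genes. *Fbn2* differed by 1.12, with a counting error of 0.19, and by 0.83 when 1 CPM was added in place of 0.1. The other 6 ranged from -0.58 for *Efemp1* to 0.78 for *Fbln7*. The median of the 8 was 0.14, beside 0 over all genes by construction. Without centring, *Fbln7* also passed 2-fold, at 1.08, and 15.1% of all genes did. *Fbln1*, under the 1 CPM filter, had 0.87.

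**Figure D3:**
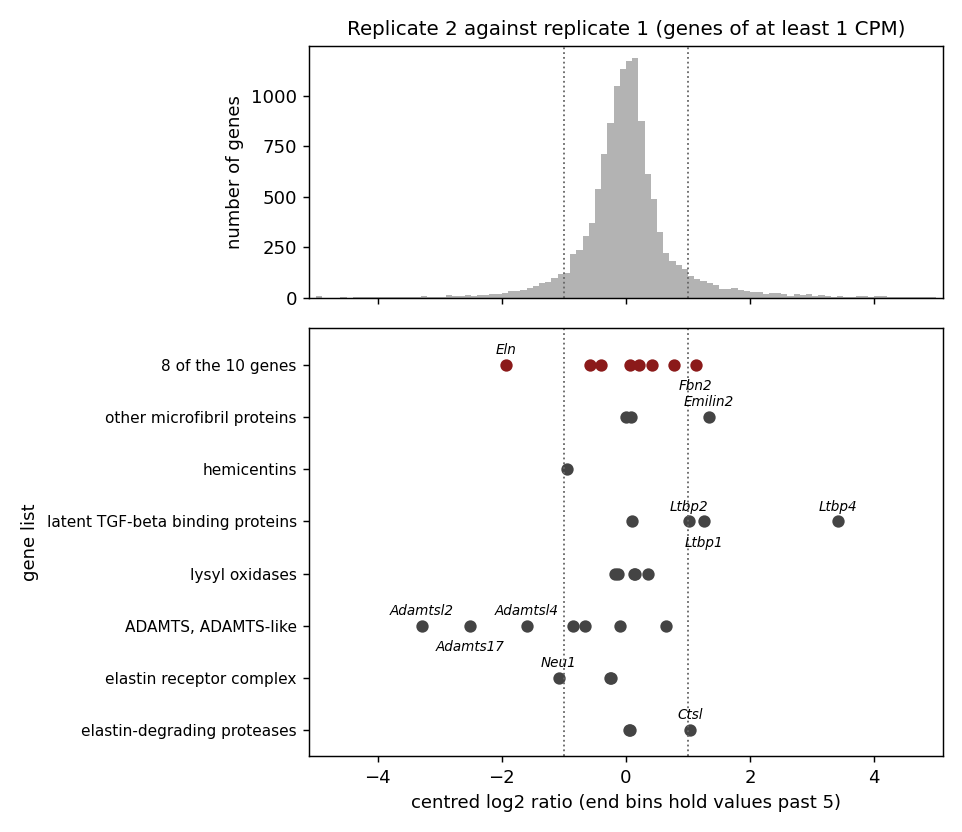
Top, number of genes by log2 ratio of replicate 2 to replicate 1, centred, for the 12631 genes averaging 1 CPM or more; bottom, the same ratio for 8 of the 10 genes (red) and for related gene lists (dark grey), with 2-fold marked by dotted lines and genes past it named. *Eln* stood at -1.93 and *Fbn2* at 1.12, while *Ltbp4* and *Adamtsl2* of the related lists lay farther out, at 3.42 and -3.29.

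Marker lists of other cells also differed between the libraries beside *Eln*. Of the 5 fibroblast markers averaging 1 CPM or more, replicate 2 had 3 lower by over 2-fold (*Col1a1*, *Col14a1* and *Dcn*), with a median log2 ratio of -1.30, where 6.06% of all genes were lower. *Col1a1* passed only with centring. Of the 8 chondrocyte markers 2 were (*Matn3* and, with centring, *Col9a1*), with a median of -0.78. The osteoblast list of 6 genes, by contrast, summed to 5.18 CPM in replicate 1 against 53.5 CPM in replicate 2, of which *Dmp1* had 0.116 and 40.4 CPM. Whether such cells were present, and whether these marker differences relate to that of *Eln*, was not tested.

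The other genes of microfibril and elastic fibre assembly, crosslinking and breakdown were taken from a list of 36, of which 35 were listed. Of these, 26 had a mean of at least 1 CPM, against 53.5% of all listed genes. Between the libraries, 5 of the 26 were higher and 4 lower in replicate 2 by over 2-fold, beside 7.43% and 6.06% of all genes. The median of the 26 was 0.02.

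Among proteins of the microfibril itself, *Emilin1*, whose product lies between elastin and microfibrils, was the highest at 371 and 487 CPM. Per kb it exceeded *Fbn1* by a log2 ratio of 2.44 ± 0.35 (SD, n = 2). *Emilin2* had 2.19 CPM in replicate 1 against 7.07 CPM in replicate 2, past 2-fold, and *Emilin3* was under 3 reads in both libraries. *Mfap2*, the gene of MAGP-1 and the closest relative of *Mfap5*, had 0.0693 and 0.569 CPM, or 3 and 24 reads. *Mfap4*, known from elastic tissues such as artery, had 47 reads in replicate 1 and 2 in replicate 2. The MAGP and MFAP4 genes were thus all below a mean of 1 CPM, while fibrillin-1 and EMILIN-1 were not. *Mfap3*, the remaining gene of this list, was not low either, at 26.5 CPM in replicate 1 against 32.5 CPM in replicate 2. The hemicentins *Hmcn1* and *Hmcn2*, large relatives of the fibulins, were low as well, at 0.578 and 1.29 CPM for *Hmcn1* and 1.39 and 0.854 CPM for *Hmcn2*, and their order differed between the libraries.

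The latent TGF-beta binding proteins share their domains with fibrillins and anchor latent TGF-beta in the matrix. All 4 had a mean of at least 1 CPM, as did 53.5% of all listed genes. Of the 4, 3 were higher in replicate 2 by over 2-fold, as were 7.43% of all genes. *Ltbp2*, whose protein binds fibrillin-1 but not latent TGF-beta, had the highest mean, at 516 CPM in replicate 1 against 1283 CPM in replicate 2. *Ltbp1* had 166 and 490 CPM. *Ltbp4*, whose protein guides fibulin-5 and elastin to microfibrils, had 8.80 CPM in replicate 1 against 117 CPM in replicate 2. The log2 ratio of *Ltbp4* to *Fbln5* per kb was accordingly -2.74 and 0.28, so these partners were not in a fixed ratio. *Ltbp3*, at 552 and 730 CPM, did not pass 2-fold and was above *Ltbp2* in replicate 1, per kb as well.

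The ADAMTS and ADAMTS-like genes of proteins that bind fibrillin or take part in microfibril assembly were 8. Of the 7 averaging 1 CPM or more, replicate 2 had 3 that were lower by over 2-fold and none higher, where 6.06% of all genes were lower. *Adamtsl3* was at a centred log2 ratio of 0.64 and *Adamtsl5* at -0.10. *Adamtsl2*, which binds fibrillin-1 and LTBP1 and is mutated in geleophysic dysplasia, a short-stature disorder that *FBN1* mutations also cause, had 1294 CPM in replicate 1 against 163 CPM in replicate 2. Relative to *Fbn1* per kb it was 17.0 times as high in replicate 1 and 2.30 times in replicate 2. *Adamts17* had 20.2 and 4.29 CPM and *Adamtsl4* 7.16 and 2.87 CPM. *Thsd4*, also named ADAMTSL6, had 3 and 22 reads.

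Of the 5 lysyl oxidases none passed 2-fold between the libraries, where 13.5% of all genes did. *Lox*, whose enzyme crosslinks elastin and collagen, was the highest at 1839 and 2505 CPM. Per kb it exceeded *Eln* by a log2 ratio of 2.86 in replicate 1 and 4.93 in replicate 2. *Loxl1*, which binds fibulin-5 and is needed to maintain elastic fibres, was the lowest of the 5 at 54.1 and 59.4 CPM.

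**Figure D4:**
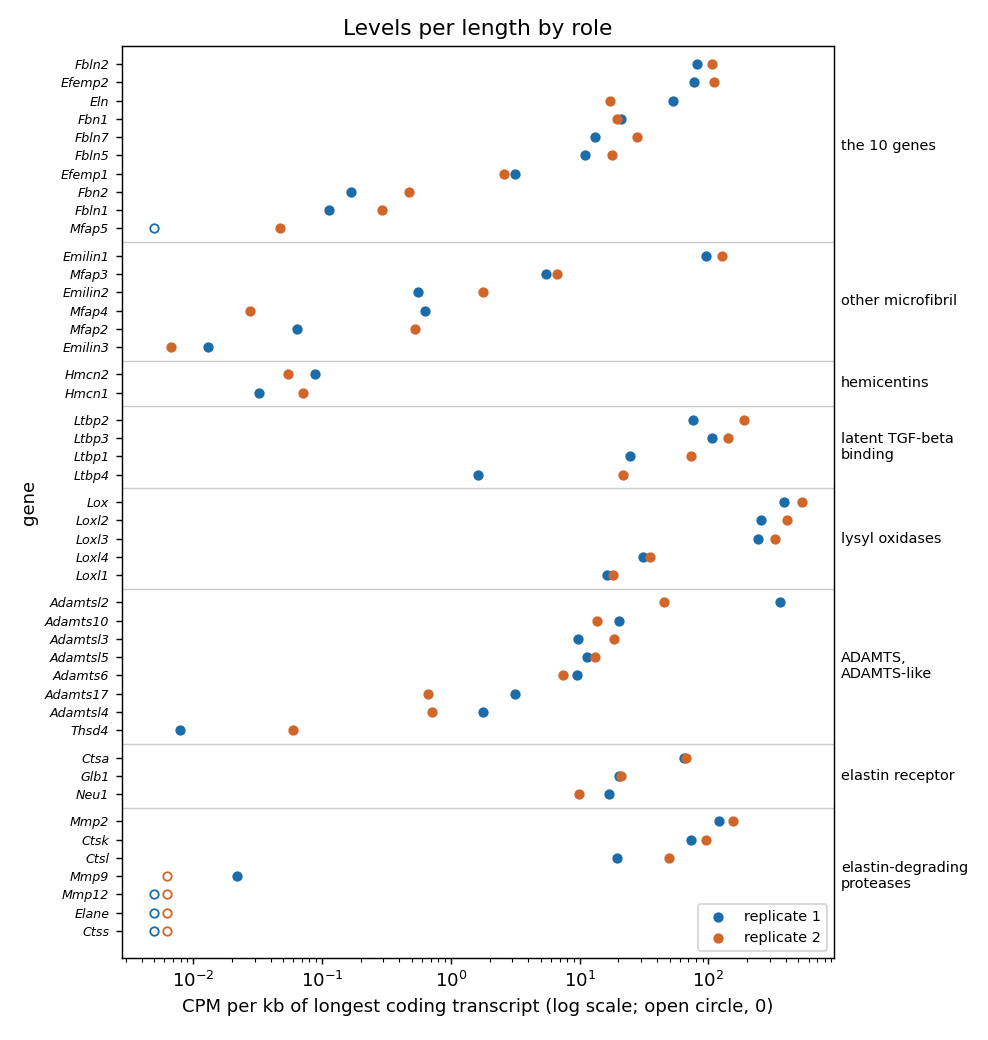
CPM per kb (log axis) of the 10 genes and of the related genes by role, in replicate 1 (blue) and replicate 2 (orange); open circles stand for 0. *Fbln2*, *Efemp2* and *Emilin1* overlapped in level, and *Lox* lay above all of the 10 genes in both libraries.

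Exons of 4 of the 10 genes overlap an exon of a gene on the other strand. For *Efemp2* this is *Mus81*, at 10.7 and 9.02 CPM, and for *Fbn1* it is *Gm9913*, at 0.116 and 0.255 CPM. For *Eln* and *Fbn2* the overlapping genes *Gm30003* and *Gm26507* were not among the genes listed. The libraries were stranded, but the strand setting of the counting is not given in the sources used here. A part of these levels may therefore come from the other strand, and for *Eln* and *Fbn2* its size is unknown.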

How the data were processed

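The data were 2 RNA-seq libraries of *Sox9*GFPHi chondrospheres. According to the methods and the labels, the authors aligned single-end 50-base reads of stranded poly(A) libraries to GRCm38 (mm10) with STAR 2.7.3a and assigned them to GENCODE M25 genes by Partek E/M in Partek Flow 10.0.21.0801. The authors deposited CPM values, 1 table per library, and 0.0001, present in every value, was subtracted here.

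Of the low CPM values, 64.8% in replicate 1 and 63.1% in replicate 2 lay within 0.02 of a whole read, too few to treat the values as counts, and no model of counts was used. Reads behind a gene were estimated from its CPM, and the counting error of a log2 ratio from both read numbers. Means and SDs cover the 2 libraries. Lengths and positions came from GENCODE M21 on the same build, in which 15575 listed genes (65.9%) had a protein-coding transcript, all 10 genes among them. The members, gene lists and named genes were chosen with earlier results of these data known. Named were the 10 genes, the highest, the undetected and the over 2-fold members of each related list, and 4 matrix genes. *Ltbp3*, *Loxl1*, *Glb1*, *Ctsk*, *Adamtsl3*, *Adamtsl5*, *Hmcn1* and *Mfap3* were added after their values were seen. The genes most alike in pattern were not sought, since over 2 libraries every correlation is 1 or -1. *Mmp7* and *Cd3e*, each in a gene list used here, were not found by symbol among the genes listed and so could not be analysed. The computation was tested on simulated data. Alternatives changed the scaling (including trimmed means of log ratios without 30% of ratios and 5% of levels on each side), length, pseudocount, filter or libraries. Python 3.11.15, numpy 2.4.6, pandas 2.3.3 and matplotlib 3.10.9 were used.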

Additional observations from a re-analysis of the deposited data

How the results depend on the processing

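For 26 results, 110 values were recomputed with 1 choice changed. When the total excluded the 10 highest genes, the summed level of the 10 genes was 2021 CPM in place of 1236, as a smaller total requires. The fibulin share was 95.2% with median coding transcript lengths, since the median for *Fbln2* is a fragment of 477 bases. The log2 ratio of *Eln* to the fibrillins, 0.55, was -0.50 with exon union lengths and -1.08 without division by length. It ranged from -0.22 without replicate 1 to 1.33 without replicate 2. With a pseudocount of 1 CPM, 1 gene (*Eln*) in place of 2 differed over 2-fold. The cause of the library differences was not tested. The log2 ratio of *Fbn2* to *Fbn1* moved by less than its SD under every alternative run, and the count of related genes of at least 1 CPM, 26, stayed within 1.5 times. Leaving out 1 of 2 libraries moves a mean by less than 1 SD by arithmetic and shows no stability. The 10 genes' single values included 25 that moved by more than the SD or the counting error, and none of those called past 2-fold changed sign. No paired analysis was possible because the 2 libraries form 1 group. Depth limits *Mfap5*, *Fbln1* and *Fbn2*, at 219 reads or fewer per library.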

Other observations

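The genes for elastin breakdown and for the elastin receptor were also measured. *Mmp2*, a gelatinase that also cleaves elastin, was the highest protease gene of the list at 372 CPM in replicate 1 against 477 CPM in replicate 2. *Ctsk*, the gene of cathepsin K, had 111 and 144 CPM, and *Ctsl*, the gene of cathepsin L, had 120 and 303 CPM, past 2-fold after centring at a log2 ratio of 1.03. Of the elastases known mainly from leukocytes, *Elane*, *Mmp12* and *Ctss* were listed at 0 in both libraries, and *Mmp9* had 3 reads in replicate 1 and 0 in replicate 2. The leukocyte markers themselves summed to 3.26 and 3.50 CPM, mostly *Cd68*, and the 5 erythroid markers to 0.0930 and 0.120 CPM. Of the elastin receptor complex, *Ctsa* was the highest at 235 and 245 CPM, followed by *Glb1*, which also encodes the lysosomal beta-galactosidase, at 48.5 and 50.4 CPM. *Neu1*, the gene of its sialidase, had 42.1 CPM in replicate 1 against 24.6 CPM in replicate 2, lower by over 2-fold only after centring.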
